A study of Homo sapiens with 12 samples.

Results

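Cytosolic ribosomal proteins are the protein part of the ribosome, the particle that translates mRNA in the cytoplasm. The RPL proteins sit in the large subunit and the RPS proteins in the small subunit. Most of these proteins are needed in equal amounts, and ribosomal protein mRNAs are among the most abundant of a growing cell. Most of these mRNAs begin with a cytosine followed by a run of pyrimidines, the terminal oligopyrimidine (TOP) tract, through which growth signals are known to set their translation. RNA arrays measure the amount of the mRNA and not its translation. The set was taken from the array table by gene name (RPL or RPS with a number, plus RPLP0, RPLP1, RPLP2, RPSA and FAU), without the RPS6K kinases or pseudogene names, and kept 124 probes that were detected at p under 0.05 in all 12 arrays. They stand for 79 of the 34599 gene names of the table, which holds 47228 probes. The large subunit had 72 of these probes, of 46 genes, and the small subunit had 52, of 33 genes, counting RPSA and FAU with the small subunit.

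The cells were MIA PaCa-2 and Capan-1, established lines of pancreatic ductal adenocarcinoma, which carried an inducible hairpin on a Tet-pLKO-puro vector. The hairpin was a control (shCtrl) or 1 of 2 hairpins against FAK, named sh1209 and sh1319 in the labels, where the Capan-1 samples have shFAK1319. FAK, encoded by PTK2, is a cytoplasmic tyrosine kinase that acts below integrins. All 6 groups, the controls included, received doxycycline at 50 ng/ml for 96 hours and puromycin, with 1.5 ug/ml in the Capan-1 cultures and 3.5 ug/ml in the MIA PaCa-2 cultures. Each group had 2 arrays. Separate cultures are not stated for the 2 arrays of a group, so p-values measure only the spread between these arrays, which may be technical.

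Median intensities of the arrays were 87.7 to 97.0, with 16259 to 19814 detected probes. PTK2 probe 450253 had a log2 change of -2.23 (sh1209) and -2.47 (sh1319) in the MIA PaCa-2 pairs and of -0.61 and -1.77 in the Capan-1 pairs, all past the threshold (limma, adjusted p at most 0.00376). The dim PTK2 probe 2680750 passed it in none of the 4. The epithelial keratins KRT8 and KRT18 were detected in 12 arrays, KRT19 in 10, EPCAM in 8 and CDH1 in 6, while the leukocyte genes CD3E and PTPRC were detected in at most 1 array, the endothelial genes CDH5 and PECAM1 in 0 and 7, and the fibroblast genes DCN and LUM in at most 2. VIM, a mesenchymal marker, had a median log2 difference of 7.99 between MIA PaCa-2 and Capan-1 over its 2 probes.

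Start sites were taken from the RefSeq promoter table of GRCh38.p14. A start window was found for 63 of the 79 genes, and 43 of them, 68.3%, had a C at position 1, the first base of the RefSeq transcript, followed by at least 4 further C or T. Over all 27305 windows of the table the share was 4.04%. The windows of 30 bases below run from 10 bases before position 1 to the twentieth base of the transcript, 5′ to 3′ on the gene's strand, and the capitals mark the pyrimidine run that starts with C at position 1. They are a selection of genes with changes described further on, and of genes from pairs of paralogs. Other genes with described changes are not shown, and the selection is no measure of how often changed genes have the tract.
RPL29, chr3:51995876-51995905, minus strand: cagcccctttCTCTTCCggttctaggcgct
RPL36A, chrX:101391001-101391030, plus strand: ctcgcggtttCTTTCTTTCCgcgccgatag
RPL34, chr4:108620566-108620595, plus strand: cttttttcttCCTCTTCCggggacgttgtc
RPL13A, chr19:49487598-49487627, plus strand: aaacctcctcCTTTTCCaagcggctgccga
RPS7, chr2:3575250-3575279, plus strand: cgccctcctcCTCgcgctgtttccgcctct
RPL39, chrX:119791611-119791640, minus strand: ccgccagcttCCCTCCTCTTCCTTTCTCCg
RPS27, chr1:153990752-153990781, plus strand: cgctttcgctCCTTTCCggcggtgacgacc
RPS27L, chr15:63157458-63157487, minus strand: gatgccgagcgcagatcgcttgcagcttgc

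Some genes with described changes had the tract and others did not. RPL29 and RPL36A, with falls, had runs of 7 and 10 bases, and RPL13A, with a rise, one of 7. RPL34, which differed between the hairpins, had a run of 8. RPS7 and RPL10A, both with falls, had runs of 3 and 0, too short to be counted. Among genes not shown, RPL32, RPL6, RPS29 and RPL17 had runs of 0, RPS15 of 1 and RPL13 of 2. RPS23, RPS24, RPL36, RPSA and RPLP1, also not shown, had runs of 7, 14, 6, 7 and 11. RPL39 had the longest run among the 63 genes, at 19 bases. RPS27 had a run of 7 bases, whereas the window of its paralog RPS27L had none at this start. The letters CCGGAAG, searched on both strands of the 300 bases around the start, were present in 22 of 63 member genes (34.9%) and in 10.7% of all windows. A match describes the letters of the reference and is no evidence of a bound factor.

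Ribosomal protein probes were among the brightest on the array. They made up 31 of the 100 brightest probes and 79 of the 500 brightest. Their mean normalized log2 intensity over the 12 arrays ran from 5.49 to 13.92 with a median of 12.93, against 5.36 over the tested probes. The tested probes had to be detected in only 2 arrays and the members in all 12, so the gap comes in part from the selection. The 3 brightest members were RPL41 probe 2680484 (13.92), RPS12 probe 6960181 (13.90) and RPS29 probe 5290289 (13.85). Intensities of different probes depend on the probe as well as on the RNA, so this is an order of signals and not of mRNA amounts.

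The members' share of the summed background-corrected intensity was higher in the MIA PaCa-2 controls than in those of Capan-1. With shCtrl it was 9.88% and 10.6% in the 2 MIA PaCa-2 arrays and 9.70% and 9.63% in the 2 Capan-1 arrays. In MIA PaCa-2 it was 10.1% and 10.3% with sh1209 and 10.1% and 9.86% with sh1319, which overlapped shCtrl. In Capan-1 it was 8.89% and 8.62% with sh1209 and 9.46% and 9.16% with sh1319, and all 4 arrays lay below both shCtrl arrays. As mean ± SD of 2 arrays, the Capan-1 groups had 9.67% ± 0.05 for shCtrl, 8.76% ± 0.19 for sh1209 and 9.31% ± 0.22 for sh1319. The share also depends on the signal of all other probes, so a lower share need not mean less ribosomal protein mRNA. In a bulk RNA sample, a smaller number of expressing cells and less RNA per cell cannot be told apart either.

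**Figure D1:**
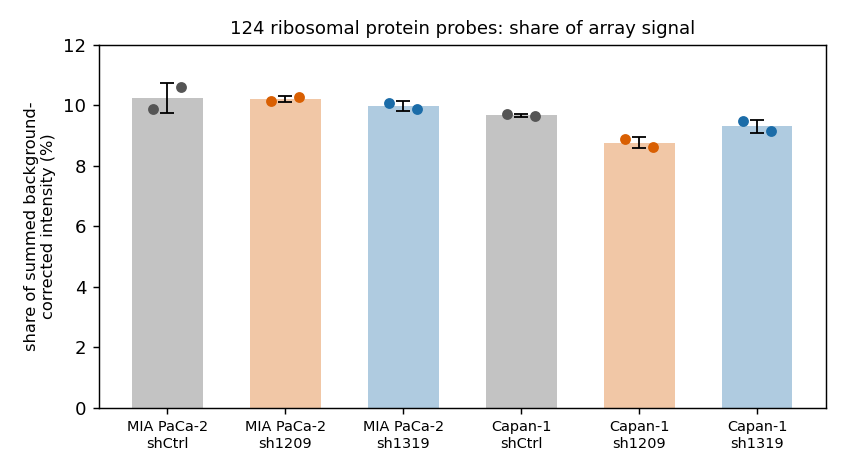
Share of summed background-corrected intensity (percent) held by the 124 ribosomal protein probes in each of the 6 groups. Points are arrays, bars are group means and error bars the SD of 2 arrays; the Capan-1 hairpin arrays lie between 8.62% and 9.46%, below the 2 Capan-1 shCtrl arrays.

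Most ribosomal protein probes did not pass the threshold with the FAK hairpins, and those that did were mostly lower. In the combined comparison, which averages the 4 pairs of hairpin and line, each against its own shCtrl, 20 of 124 probes (16.1%) were lower and 5 (4.03%) higher at a limma adjusted p under 0.05. Over all 24207 tested probes the shares were 12.7% lower and 12.4% higher, so the lower share is near the background and the higher share is under it. The median log2 change of the members was -0.06, against 0.00 over all tested probes, and 89 of the 124 lay within 0.2 of 0. The median was -0.08 in the large subunit, where 13 of 72 probes were lower and 2 higher, and -0.03 in the small subunit, where 7 of 52 were lower and 3 higher. Median scaling of the arrays in place of quantile normalization gave 6 lower and 4 higher, with a median over the members of -0.0012 and over all tested probes of 0.07. Without Capan-1 shCtrl replicate 1 the counts were 11 lower and 3 higher, and without MIA PaCa-2 shCtrl replicate 2 the number higher was 3.

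The 4 pairs of hairpin and line differed in how many members passed. With sh1209 in MIA PaCa-2, 6 members were higher and 7 lower, 4.84% and 5.65%, against 9.03% and 8.92% of all tested probes. With sh1319 in MIA PaCa-2, 8 were higher and 11 lower, 6.45% and 8.87%, against 12.2% and 12.1%. With sh1209 in Capan-1, 3 were higher and 22 lower, 2.42% and 17.7%, against 8.09% and 8.63%, so the lower share was about double the background there. With sh1319 in Capan-1, 2 were higher and 14 lower, 1.61% and 11.3%, against 6.91% and 6.74%. The median log2 changes were -0.01, -0.03, -0.10 and -0.03 in the same order. Under median scaling the medians of both sh1319 pairs turned positive, to 0.05 (MIA PaCa-2) and 0.07 (Capan-1), where the median of all tested probes was 0.04 and 0.11. In all, 42 probes of 34 genes (33.9% of the members) passed in at least 1 pair and 82 passed in none, against 43.7% of all tested probes past it in at least 1. The members past it in all 4 pairs were 1, of RPS7, against 1.69% of all tested probes. The 2 pairs of a line share their control arrays.

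Single arrays moved these counts. For sh1209 in MIA PaCa-2 the number lower was 1 without sh1209 replicate 1, 3 without shCtrl replicate 1 and 4 without shCtrl replicate 2, and the number higher was 3 without sh1209 replicate 2. For sh1319 in MIA PaCa-2 the number higher was 4 without sh1319 replicate 1 or shCtrl replicate 2 and 5 without sh1319 replicate 2 or shCtrl replicate 1. For sh1209 in Capan-1 the number lower was 13 without sh1209 replicate 2 or shCtrl replicate 1 and 14 without shCtrl replicate 2. The number higher there was 0 without sh1209 replicate 2 or shCtrl replicate 2 and 1 without the other array of either group. For sh1319 in Capan-1 the number higher was 1 without sh1319 replicate 1 or shCtrl replicate 2.

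**Figure D2:**
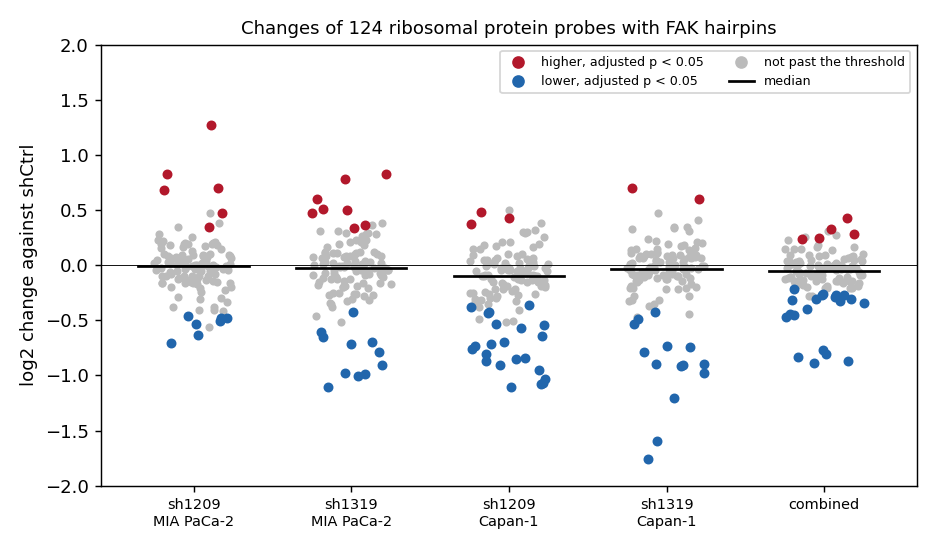
Log2 change against shCtrl of each of the 124 probes in the 4 pairs of hairpin and cell line and in the combined comparison (vertical axis). Each point is a probe, red higher and blue lower at a limma adjusted p under 0.05, grey not past it, and the black bar is the median, which lies between -0.10 and -0.01.

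Few of the brightest members passed the threshold, as was so for other probes of that brightness. Of 61 members with a mean log2 intensity of 13 or above, 5 (8.2%) passed in at least 1 of the 4 pairs, against 27 of 234 tested probes (11.5%) in that range, the members included. Of 28 members between 11 and 13, 12 (42.9%) passed, against 54.6% of 690 tested probes. Of 35 members under 11, 25 (71.4%) passed, against 43.7% of 23283 tested probes, most of which were dimmer than the members. The background correction bears on the dim members. Of 195 member changes past the threshold over the 9 comparisons, 26 were over 1.5 times smaller on the log2 scale without it, all of probes with a mean log2 intensity under 9, and 0 changed sign. The bright probes' changes in the combined comparison lay between -0.21 and 0.33, and those of the dim probes between -0.89 and 0.31. Intensity reached 19275.4 on these arrays and the members' own brightest value was 18591.9; how far signal is compressed near that end was not tested.

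**Figure D3:**
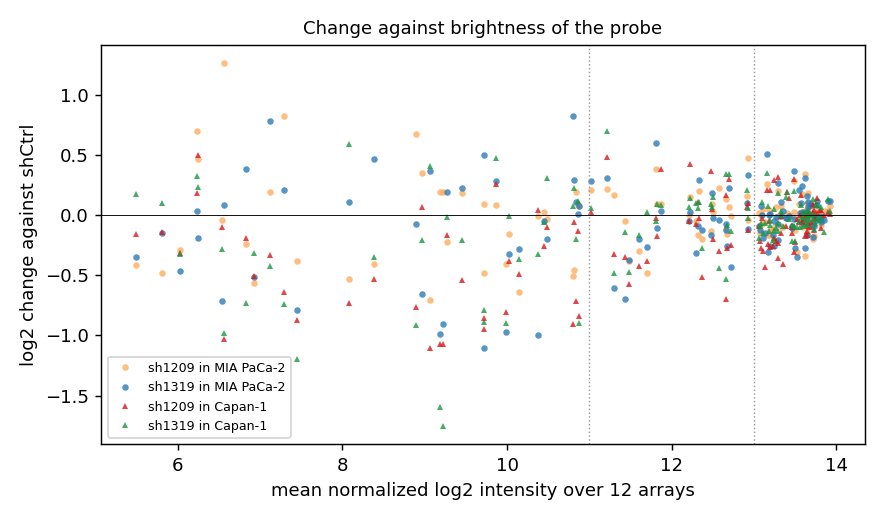
Log2 change against shCtrl (vertical axis) of each probe in each of the 4 pairs, by its mean normalized log2 intensity over the 12 arrays (horizontal axis). Dotted lines mark 11 and 13; 5 of the 61 probes at 13 or above passed the threshold in at least 1 pair, and 25 of the 35 under 11 did, against 11.5% and 43.7% of all tested probes in these ranges.

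In 34 genes with at least 2 member probes, the probes often differed. In the combined comparison all probes of the gene passed in 2 genes, some passed in 13 and none in 19. Ribosomal protein genes have many processed pseudogenes with near-identical sequence, and the genes differ in isoforms and overlapping transcripts, so which RNA a probe measured is uncertain. The probe sequences were not used here.

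RPL29, a large-subunit protein that also binds heparin at the cell surface, had the largest fall in the combined comparison and depended on hairpin and line. Probe 2450167 had normalized log2 intensities of 10.34 and 10.38 with shCtrl, 10.56 and 10.54 with sh1209 and 9.46 and 9.45 with sh1319 in MIA PaCa-2. In Capan-1 it had 9.25 and 9.27 with shCtrl, 8.39 and 7.98 with sh1209 and 7.62 and 7.40 with sh1319. The sh1319 arrays were the lowest in each line, and the sh1209 arrays in MIA PaCa-2 were above shCtrl. The log2 change was -1.75 ± 0.14 (SE) with sh1319 in Capan-1, 29.6% of the control level (limma adjusted p = 2.93e-05). It was -1.07 with sh1209 in Capan-1 and -0.91 with sh1319 in MIA PaCa-2 (limma adjusted p = 0.000396 and 0.000627), and 0.19 with sh1209 in MIA PaCa-2, which did not pass (limma adjusted p = 0.421). The other RPL29 probe, 2350465, had log2 changes of 0.20, -0.99, -1.07 and -1.60 over the pairs sh1209 and sh1319 in MIA PaCa-2 and sh1209 and sh1319 in Capan-1. The combined change was -0.89 ± 0.09 and -0.86 ± 0.09 (SE) in the 2 probes (limma adjusted p = 2.69e-05 and 3.78e-05).

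RPS7, a small-subunit protein known to bind MDM2, fell in both lines with both hairpins. Probe 2690608 had log2 intensities of 11.11 and 11.09 with shCtrl, 10.61 and 10.62 with sh1209 and 9.98 and 10.01 with sh1319 in MIA PaCa-2. Capan-1 had 9.52 and 9.40 with shCtrl, 8.68 and 8.54 with sh1209 and 8.66 and 8.48 with sh1319. No hairpin array reached the control level of its line. The log2 changes were -0.48 and -1.10 for the MIA PaCa-2 pairs and -0.85 and -0.89 for the Capan-1 pairs, with limma adjusted p between 3.61e-05 and 0.0134, and the combined change was -0.83 ± 0.07 (SE, limma adjusted p = 1e-05), 56.2% of control. The second RPS7 probe, 6330647, had changes of -0.41, -0.97, -0.81 and -0.89, of which the first did not pass (limma adjusted p = 0.0627).

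RPL36A, a large-subunit protein encoded on the X chromosome, fell with 3 of the 4 pairs. Its log2 intensity in MIA PaCa-2 was 8.48 and 8.28 with shCtrl, 7.98 and 8.02 with sh1209 and 7.67 and 7.51 with sh1319. In Capan-1 it was 7.65 and 7.56 with shCtrl, 6.92 and 6.55 with sh1209 and 6.59 and 6.21 with sh1319. All 8 hairpin arrays lay below their controls. The change was -1.20 ± 0.16 (SE) with sh1319 in Capan-1 (limma adjusted p = 0.000679; -0.76 without background correction) and -0.38 with sh1209 in MIA PaCa-2, which did not pass (limma adjusted p = 0.14). The combined change was -0.81 ± 0.10 (SE, limma adjusted p = 0.000136). The remaining falls named by the rule were RPL39L probe 6900672 at -0.47 ± 0.12 and RPL10A probe 4040100 at -0.45 ± 0.09 (SE, limma adjusted p = 0.0107 and 0.00433). RPL39L had -0.27 without background correction and was not past the threshold under median scaling (-0.30, adjusted p = 0.114). The second RPL10A probe, brighter at 13.07, had a combined change of -0.14 (limma adjusted p = 0.227).

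**Figure D4:**
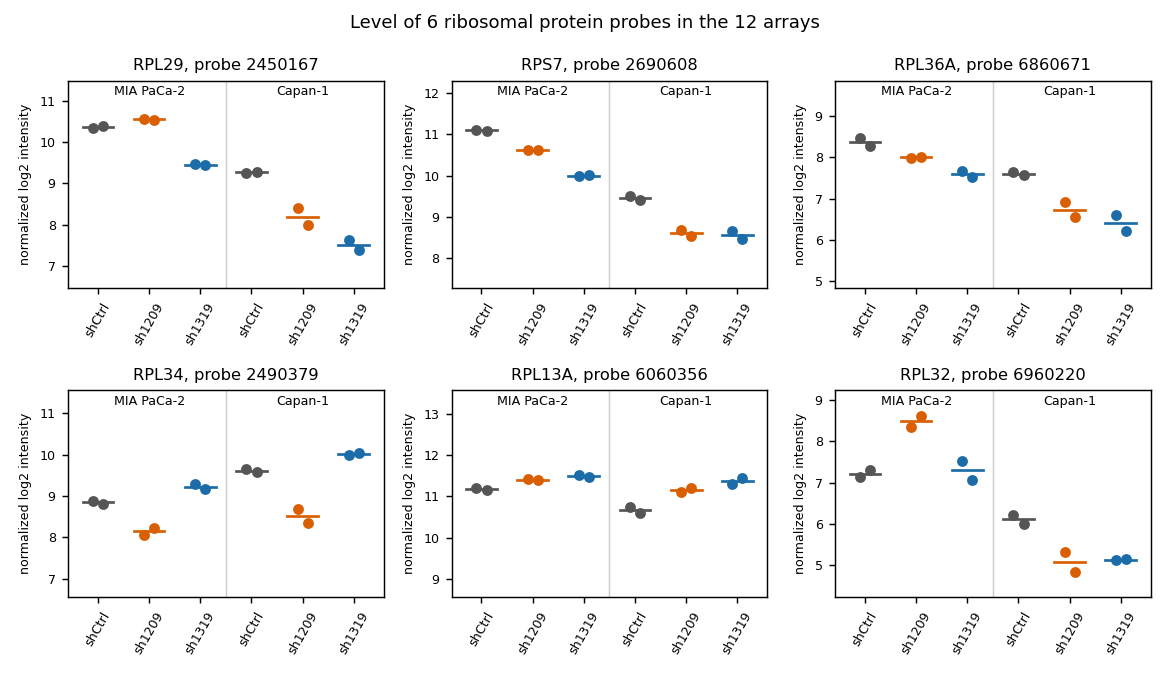
Normalized log2 intensity (vertical axis, 5 log2 units in every panel) of 6 probes in the 12 arrays. Points are arrays, horizontal bars group means, and colours the hairpin; RPL29, RPS7 and RPL36A fell in Capan-1 with both hairpins, RPL34 fell with sh1209 in both lines, RPL13A rose in Capan-1, and RPL32 probe 6960220 rose with sh1209 in MIA PaCa-2 and fell in Capan-1.

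The 5 probes higher in the combined comparison changed less than the falls above. RPL13A, a large-subunit protein that also takes part in the GAIT complex of translational silencing, had log2 intensities of 11.21 and 11.16 with shCtrl, 11.41 and 11.38 with sh1209 and 11.52 and 11.46 with sh1319 in MIA PaCa-2. The Capan-1 values were 10.74 and 10.60 with shCtrl, 11.10 and 11.21 with sh1209 and 11.29 and 11.45 with sh1319. All 8 hairpin arrays were above their controls, but RPL13A passed the threshold only in the Capan-1 pairs and with neither hairpin in MIA PaCa-2. The combined change was 0.43 ± 0.07 (SE, limma adjusted p = 0.00102), and it was 0.70 ± 0.11 with sh1319 in Capan-1 (limma adjusted p = 0.00217). With sh1209 in Capan-1 it was 0.48 (limma adjusted p = 0.0138), and this call was lost without shCtrl replicate 2 (0.41, adjusted p = 0.104) or sh1209 replicate 2 (0.43, adjusted p = 0.0958) of that line, and under median scaling (0.57, adjusted p = 0.0826). RPSA probe 1410537, of the small-subunit protein also known as the laminin receptor, had a change of 0.24 ± 0.07, and RPLP1 probe 6380639, of the ribosomal stalk, one of 0.23 ± 0.07 (SE, limma adjusted p = 0.0256 and 0.0311).

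The RPSA and RPLP1 calls were close to the threshold and were lost when any 1 of several arrays was left out. Over all alternatives the changes ran from 0.21 to 0.28 (RPSA) and from 0.19 to 0.28 (RPLP1). Neither passed under median scaling (limma adjusted p = 0.222 and 0.202). RPSA was not past the threshold without Capan-1 shCtrl replicate 1 (0.21, adjusted p = 0.11), or without MIA PaCa-2 shCtrl replicate 1 or 2 (adjusted p = 0.0669 and 0.0652). RPLP1 lost its call without MIA PaCa-2 shCtrl replicate 2 (0.19, adjusted p = 0.126), without either Capan-1 shCtrl array (adjusted p = 0.089 and 0.082), and without 1 of 5 hairpin arrays, namely MIA PaCa-2 sh1209 replicate 2 (adjusted p = 0.0508), sh1319 replicate 1 (0.0577), Capan-1 sh1209 replicate 2 (0.0614), and sh1319 replicates 1 and 2 (0.0516 and 0.05). None of the other stalk probes passed: the 2 further RPLP1 probes had combined changes of 0.28 and 0.10, the 2 RPLP0 probes 0.02 and 0.08 and RPLP2 0.01, with adjusted p from 0.0526 to 0.942.

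RPL34, a large-subunit protein, differed between the hairpins in both lines. Probe 2490379 had log2 intensities of 8.88 and 8.82 with shCtrl, 8.06 and 8.23 with sh1209 and 9.28 and 9.16 with sh1319 in MIA PaCa-2. Its Capan-1 values were 9.65 and 9.58 with shCtrl, 8.67 and 8.35 with sh1209 and 9.99 and 10.05 with sh1319. In both lines sh1209 lay below and sh1319 above both control arrays. The difference sh1319 minus sh1209 was 1.07 ± 0.13 (MIA PaCa-2) and 1.51 ± 0.13 (Capan-1) (SE, limma adjusted p = 0.00013 and 2.87e-05). Against shCtrl, sh1209 gave -0.71 and -1.10 in the 2 lines (limma adjusted p = 0.00331 and 0.000205), and sh1319 gave 0.37 and 0.41, which did not pass (limma adjusted p = 0.0658 and 0.0661). The brighter probe 2650524 had hairpin differences of 1.33 ± 0.12 and 0.98 ± 0.12 (SE), and with sh1319 in MIA PaCa-2 it rose by 0.82 (limma adjusted p = 0.000315).

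Between the hairpins, 24 members (19.4%) differed in MIA PaCa-2 against 22.6% of all tested probes, 9 higher and 15 lower with sh1319. In Capan-1, 8 members (6.45%) differed against 11.3%, 5 higher and 3 lower. The MIA PaCa-2 count was 15 without sh1209 replicate 1 and 14 without sh1319 replicate 1, and the Capan-1 count was 4 without sh1209 replicate 1, 5 without sh1319 replicate 1 and 3 without sh1319 replicate 2. RPL32 probe 6960220 and the 2 RPL29 probes were the lowest in MIA PaCa-2, at -1.19, -1.18 and -1.10, and RPL8 probe 1050709 was next to RPL34 among the highest, at 0.87 ± 0.15 (SE, limma adjusted p = 0.00157). In Capan-1 the 3 lower probes were the 2 of RPL29 (-0.68 and -0.53, limma adjusted p = 0.00983 and 0.0372) and RPS23 (-0.55, limma adjusted p = 0.0248). RPL29 probe 2450167 was not past the threshold without Capan-1 sh1209 replicate 1 (-0.48, adjusted p = 0.0935) or sh1319 replicate 2 (-0.57, adjusted p = 0.0841), nor under median scaling (-0.63, adjusted p = 0.0601). Probe 2350465 gave -0.38 and -0.35 without these arrays (adjusted p = 0.269 and 0.249) and lost its call also without either sh1209 or sh1319 array of MIA PaCa-2 (adjusted p = 0.0502 and 0.0509) or either Capan-1 shCtrl array (0.0535), and under median scaling (-0.49, adjusted p = 0.181). RPS23 gave -0.43 without Capan-1 sh1209 replicate 1 (adjusted p = 0.189), and lost its call without sh1319 replicate 1 or 2 (adjusted p = 0.112 and 0.102), without background correction (-0.22, adjusted p = 0.0636) and under median scaling (adjusted p = 0.13).

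Some calls in a single pair were less firm. RPS26 probe 6590377 fell with sh1209 in MIA PaCa-2, from 10.76 and 10.57 to 10.00 and 10.06 (log2 change -0.64 ± 0.16 (SE), limma adjusted p = 0.0173), and was not past the threshold without shCtrl replicate 1 (-0.54, adjusted p = 0.0972), sh1209 replicate 1 (-0.61, 0.0811) or sh1209 replicate 2 (-0.66, 0.0586). RPSA probe 2320544, the dim one, had 6.68 and 6.05 with shCtrl and 6.92 and 7.21 with sh1209 there (0.70 ± 0.21 (SE), limma adjusted p = 0.0412), and 9 of the 12 removals of an array ended the call, with the smallest change at 0.39 (adjusted p = 0.28) without shCtrl replicate 2, beside 0.41 without background correction; it was also lost under median scaling and with no filter (adjusted p = 0.0561 and 0.0807). In Capan-1 with sh1209, RPL3 probe 1710369 had a change of 0.37 ± 0.11 and RPS9 probe 6250097 one of 0.43 ± 0.11 (SE, limma adjusted p = 0.041 and 0.0181). Removing any 1 of the 4 Capan-1 shCtrl and sh1209 arrays ended both calls, with adjusted p of 0.107 to 0.18 for RPL3 and 0.0735 to 0.0894 for RPS9. RPL3 was also lost without either shCtrl or sh1319 array of MIA PaCa-2 (adjusted p = 0.0505 and 0.0566), and neither passed under median scaling (adjusted p = 0.309 and 0.177).

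RPL5 and RPL11 form, with the 5S RNA, the particle that restrains MDM2; RPL5 passed in 1 of the 4 pairs and RPL11 in 0 by limma. RPL5 had log2 intensities of 12.79 and 12.89 with shCtrl and 12.39 and 12.44 with sh1319 in MIA PaCa-2, a change of -0.43 (limma adjusted p = 0.0188), and its changes in the other 3 pairs were -0.01, -0.25 and -0.13 and did not pass. The 2 RPL11 probes lay between -0.26 and 0.30 in the 4 pairs, and neither passed in any. RPL11 probe 60053 differed between the lines with shCtrl, where MIA PaCa-2 was higher, at 0.49 (limma adjusted p = 0.00381). FAU, whose product is a ubiquitin-like protein fused to the small-subunit protein eS30, had changes of 0.07 to 0.21 with the hairpins, none past the threshold, and was lower in the MIA PaCa-2 controls than in Capan-1 (-0.43, limma adjusted p = 0.0134).

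More members passed the threshold between the cell lines (51, or 41.1%) than with any hairpin, and the same held over all tested probes. The puromycin dose was 3.5 ug/ml in MIA PaCa-2 and 1.5 ug/ml in Capan-1. Line and dose therefore cannot be told apart here, nor where hairpin changes are compared between the lines. With shCtrl, 39 members (31.5%) were higher and 12 (9.68%) lower in MIA PaCa-2 relative to Capan-1, against 22.4% and 19.6% of all tested probes. The large subunit had 27 of 72 higher and 8 lower with a median difference of 0.22, and the small subunit 12 of 52 higher and 4 lower with a median of -0.04. Over all members the median was 0.06, against 0.05 over all tested probes. Under median scaling the members' median was 0.24 and that of all tested probes -0.01, with 36 members higher and 8 lower.

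RPL39L, the testis-enriched paralog of RPL39, had the largest difference. Its probe 6900672 had log2 intensities of 5.44 and 5.70 (MIA PaCa-2) and 8.93 and 8.89 (Capan-1) with shCtrl, and over all hairpins 4.73 to 5.70 against 8.31 to 8.93. The lines did not overlap in any of the 12 arrays. The difference was -3.33 ± 0.19 (SE, limma adjusted p = 4.58e-08), so MIA PaCa-2 had 9.92% of the Capan-1 level. Without background correction it was -2.20, or 21.8%, and RPL37A probe 990273 then had the larger one at -2.25. The RPL39L values in MIA PaCa-2 lay around 5.36, the median of the tested probes, and so near the dim end. Both percentages therefore depend on how background was handled. RPL39 itself, at 13.82 and 13.69 against 13.40 and 13.24, was above its Capan-1 level in MIA PaCa-2, with a difference of 0.43 (limma adjusted p = 0.0225). A second RPL39L probe, 6060719, was detected in 9 of the 12 arrays and so is no member; the 3 arrays without detection were all of MIA PaCa-2.

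The other paralog pairs could be compared in part. RPS27L, a p53-inducible paralog of RPS27, had log2 intensities of 10.60 and 10.54 (MIA PaCa-2) and 11.28 and 11.26 (Capan-1) with shCtrl, a difference of -0.70 ± 0.10 (SE, limma adjusted p = 0.00017). The 3 RPS27 probes had differences of -0.09, -0.24 and -0.25, none past the threshold (limma adjusted p from 0.105 to 0.55), and neither gene passed in any hairpin pair. RPL3L, the striated-muscle paralog of RPL3, was detected in 1 array. RPL10 had probes detected in 0 and 1 arrays, and RPL10L, its retrogene, in 10, so the RPL10 pair has no member here. The RPL10L probe in MIA PaCa-2 had log2 intensities of 6.92 and 6.63 (sh1319) and of 4.72 and 4.56 (shCtrl); in the controls it was detected in 1 of the 2 arrays, so no fold is given.

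RPS29, RPL37A, RPS23 and RPL17 showed the next largest differences between the lines. RPS29 probe 2760452 had 6.84 and 7.14 (MIA PaCa-2) and 9.52 and 9.20 (Capan-1), a difference of -2.37 ± 0.16 (SE, limma adjusted p = 2.2e-07). The 3 other RPS29 probes, at means of 13.69 to 13.85, had differences of -0.12, -0.05 and -0.13, none past the threshold. RPL37A probe 990273 had 11.23 and 11.15 against 13.41 and 13.55, a difference of -2.29 ± 0.12 (SE, limma adjusted p = 1.99e-08). The dim RPL37A probe 4180110 went the other way, with 6.35 and 6.20 against 5.43 and 5.69 (0.71 ± 0.16 (SE), limma adjusted p = 0.00374, and 0.32 without background correction), and RPL37A was the only member gene with probes past the threshold in both directions in any of the 9 comparisons. RPS23, a small-subunit protein of the decoding centre, had 8.02 and 7.81 against 6.13 and 5.90, a difference of 1.90 ± 0.14 (SE, limma adjusted p = 3.81e-07) and of 1.19 without background correction. The 3 RPL17 probes were all higher in MIA PaCa-2, by 0.82, 1.02 and 1.65, with probe 2000593 at 11.73 and 11.81 against 10.17 and 10.07 (limma adjusted p = 2.14e-07). RPS7 was higher there too, by 1.64 ± 0.12 and 1.59 ± 0.14 (SE) in its 2 probes.

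**Figure D5:**
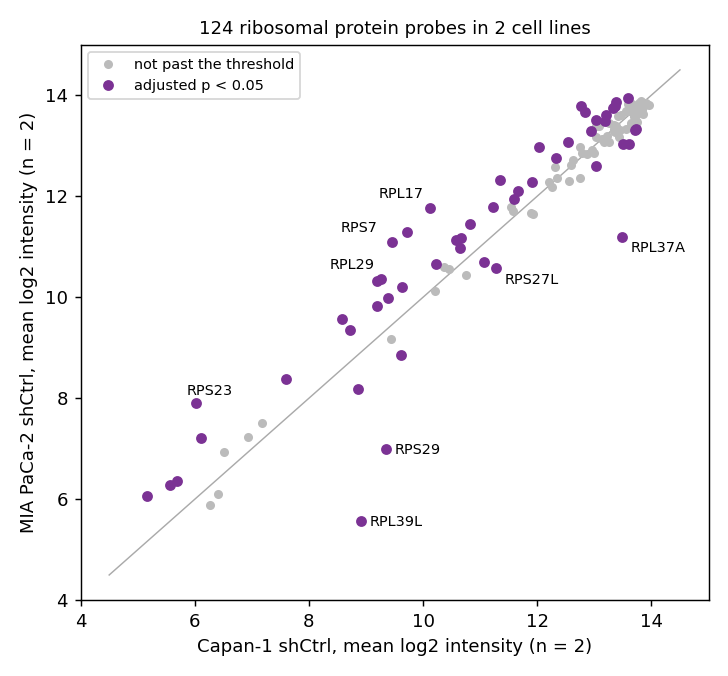
Mean normalized log2 intensity of the 124 probes with shCtrl in Capan-1 (horizontal axis) and MIA PaCa-2 (vertical axis), 2 arrays each. The line marks equal values and purple points have a limma adjusted p under 0.05; RPL39L, RPS29 and RPL37A stand below the line at -3.33, -2.37 and -2.29, and RPS23, RPL17, RPS7 and RPL29 above it.

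The dim RPS29 probe also followed the hairpin. In Capan-1 it had 9.52 and 9.20 with shCtrl, 8.80 and 8.45 with sh1209 and 9.95 and 9.96 with sh1319, and in MIA PaCa-2 6.84 and 7.14, 6.38 and 6.54, and 7.14 and 7.06. The sh1319 arrays were above the sh1209 arrays in both lines, by 1.33 ± 0.16 in Capan-1 and 0.64 ± 0.16 in MIA PaCa-2 (SE, limma adjusted p = 0.00032 and 0.0127), the second 0.39 without background correction. Its change with sh1319 in Capan-1, 0.60 (limma adjusted p = 0.0295), was not past the threshold without shCtrl replicate 2 (0.43, adjusted p = 0.209), sh1319 replicate 1 (0.60, 0.117) or sh1319 replicate 2 (0.59, 0.122). Its change with sh1209 in MIA PaCa-2, -0.53 (limma adjusted p = 0.0397), lost its call without shCtrl replicate 2 (-0.38, adjusted p = 0.221), sh1209 replicate 1 (-0.45, 0.182) or sh1209 replicate 2 (-0.61, 0.0729), without either sh1319 array of MIA PaCa-2 (0.0509) or of Capan-1 (0.057), under median scaling (-0.48, 0.169), and with no filter (0.0588), and was -0.32 without background correction.

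The knockdown changes of 14 members (11.3%) differed between the lines, against 14.3% of all tested probes, whose split by direction was not counted. In all 14, of 11 genes, the change in MIA PaCa-2 was the higher one. Without Capan-1 shCtrl replicate 1 the number was 8. The largest difference was that of RPL32 probe 6960220, 1.68, which was 0.91 without background correction and then under the 1.05 of RPL6 probe 2630561. It had 7.12 and 7.31 with shCtrl, 8.35 and 8.62 with sh1209 and 7.52 and 7.07 with sh1319 in MIA PaCa-2. In Capan-1 it had 6.22 and 6.01, 5.33 and 4.84, and 5.12 and 5.15. It passed as higher only with sh1209 in MIA PaCa-2 (1.27 ± 0.19 (SE), limma adjusted p = 0.000859) and lower in Capan-1 with both hairpins (-1.03 and -0.98, limma adjusted p = 0.00386 and 0.00634; -0.41 and -0.40 without background correction). The brightest RPL32 probe, 6400437, stayed between 13.49 and 13.73 in all 12 arrays.

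The same contrast between the lines was seen in a dimmer probe of RPL6, RPL13, RPS15 and RPS24. RPL6 probe 2630561 had changes of 0.09 and 0.50 (MIA PaCa-2) and -0.95 and -0.79 (Capan-1), and all but the first passed (limma adjusted p at most 0.0113). RPL13 probe 840242 had changes of 0.83 and 0.21 (MIA PaCa-2), the first past the threshold, and -0.64 and -0.74 (Capan-1; limma adjusted p = 0.0385 and 0.0229; -0.39 and -0.45 without background correction). RPL13 probe 1940743 differed from it, with -1.0 for sh1319 in MIA PaCa-2 (limma adjusted p = 0.000146) and no other pair past the threshold. RPS15 probe 6290609 had 0.68 and -0.07 (MIA PaCa-2) and -0.76 and -0.92 (Capan-1), and RPS24 probe 10546 had 0.08 and 0.08 (MIA PaCa-2) and -0.84 and -0.90 (Capan-1). Both RPL36 probes rose with sh1319 in MIA PaCa-2, by 0.60 and 0.78 (limma adjusted p = 0.00446 and 0.000773).

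Other genes of the translation machinery gave these counts in the combined comparison, where 12.7% of all tested probes were lower and 12.4% higher. Of 34 probes of 17 TOP mRNA genes outside the ribosome, 5 were higher and 5 lower, with a median of -0.01. EEF2, the elongation factor that moves the ribosome along mRNA, rose by 0.55 ± 0.07 (SE, limma adjusted p = 0.000189). All 3 probes of BTF3, a nascent-chain binding factor, fell, by 0.28, 0.20 and 0.41 (-0.28, -0.20 and -0.41 on the log2 scale). Of 6 probes of the paralogs RPL26L1, RPL36AL and RPL7L1, 4 were lower and 0 higher by limma, with a median of -0.26; both RPL26L1 probes fell (-0.46 and -0.28) and both RPL36AL probes fell (-0.33 and -0.24). Of 109 probes of 76 mitochondrial ribosomal protein genes, which serve the separate ribosome of mitochondria, 35 were lower and 3 higher, with a median of -0.13, against 12.7% and 12.4% of all tested probes. Of 12 probes of 9 genes that regulate translation of ribosomal protein mRNAs, 4 were lower and 1 higher, with a median of -0.12. The higher one was EIF4EBP2, an inhibitor of cap-dependent translation, which rose by 0.77 ± 0.09 (SE, limma adjusted p = 7.11e-05), and the lower ones were 2 probes of TSC1, a repressor of mTORC1 (-0.64 and -0.38), the S6 kinase gene RPS6KB1 (-0.27) and EIF4EBP1 (-0.27). The hairpins differed in these 12 probes. In MIA PaCa-2, sh1209 gave 2 higher and 1 lower (median 0.08), and sh1319 gave 1 higher and 6 lower (median -0.38). In Capan-1, sh1209 gave 0 higher and 0 lower (median -0.03), and sh1319 gave 0 higher and 2 lower (median -0.33).

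Rows that the detection rule or the name rule left out are few. Of 142 rows with a matching name, 7 stood under 3 old names that RefSeq gives as pseudogenes, RPL13L, RPL14L and RPS26L, and 6 of these were detected in all 12 arrays. A further 11 were not detected in all 12, and 7 of them belonged to genes with another member probe. One of these, RPS26 probe 5490066, detected in 11 arrays, had log2 intensities of 6.24 and 6.06 with shCtrl, 4.44 and 5.15 with sh1209 and 4.85 and 4.97 with sh1319 in MIA PaCa-2. The Capan-1 arrays had 7.50 and 7.45, 6.14 and 6.12, and 6.0 and 5.89. All 8 hairpin arrays were below their controls, and the combined change was -1.37 ± 0.12 (SE, limma adjusted p = 9.78e-06). The probe is dim, with intensities of 87.6 to 248.0 before any correction, and its change without background correction is not given here. The RPS26 member probe 6590377 had a combined change of -0.44 (limma adjusted p = 0.00626), and the 3 probes under the pseudogene name RPS26L had -0.36, -0.43 and -0.59, all past the threshold.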

How the data were processed

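The authors deposited, per the file headers, linear intensities and a detection p-value per probe for 12 Illumina HumanHT-12 v4 arrays, without normalization; the submitters' processing notes name GenomeStudio 2011.1. Of 47320 rows, 92 spike-in controls were dropped once the background had been corrected; 28 columns were empty. Intensities were background-corrected from the detection p-values (limma nec, offset 16, which shrinks the changes of dim probes), quantile-normalized and put on the log2 scale. Probes detected at p under 0.05 in at least 2 arrays were tested, 24207 of 47228. limma 3.58.1 (R 4.3.3) fitted 6 group means (residual degrees of freedom: 6). Each of 9 comparisons had its own Benjamini-Hochberg adjustment, with a threshold of 0.05. The code of the fit was checked on simulated data with independent noise and shifts larger than most member changes. That check does not cover smaller changes or effects shared by arrays. The number of arrays, 2 per group, limits the precision.

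The members and lists were chosen with earlier results of these data known. Genes were named by a rule: PTK2, the 5 largest rises and falls of the combined comparison that kept 1 sign over the 4 pairs, the 3 largest in each other comparison, the 3 brightest members, the paralog pairs, the stalk proteins, RPL5, RPL11, RPSA and FAU, and genes with probes called both ways. RPL29, RPS26 probe 5490066 and the list genes in the text were named after their values were seen, as were RPL6, RPS15, RPS24 and RPL36 where they are described together. Start windows come from the RefSeq promoter table of GRCh38.p14 (250 bases before to 50 from the start). Alternatives were no background correction, median scaling, cyclic loess, no filter, detection in all 12 arrays, a replicate block and leaving out each array. Some genes that the rule names are not reported here.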

Additional observations from a re-analysis of the deposited data

Results flagged for a closer look

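In 14 member probes the change with the FAK hairpins differed between the 2 lines by limma's test of that difference (MIA PaCa-2 change minus Capan-1 change, each averaged over both hairpins). It was 1.68 on the log2 scale for RPL32 probe 6960220 (limma adjusted p = 0.000716; 0.91 without background correction), 1.21 for RPL13 probe 840242 (0.00503), 1.16 for RPL6 probe 2630561 (0.000416) and 1.14 for RPS15 probe 6290609 (0.000371). The RPL29 probes 2450167 and 2350465 had 1.06 and 0.94, RPS24 probe 10546 had 0.95 and RPL36 probe 3290446 had 0.86 (0.57 without background correction). Between 0.48 and 0.61 were RPL12 probe 7550458 (0.61), RPL17 probe 2000593 (0.61), RPL9 probe 4640095 (0.58), RPL34 probe 2650524 (0.57), RPL36 probe 840647 (0.53) and RPS15 probe 20021 (0.48). The mean log2 intensity of RPL32 probe 6960220 was 6.56 and that of RPS15 probe 20021 was 12.93, and brighter probes of RPL32, RPL6 and RPS24 did not pass this test. The part of intensity in these differences was not tested. No group has the 4 arrays needed to look for a single array far from the others.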

How the results depend on the processing

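Of 54 changes named by the rule, 39 stayed past the threshold under all 18 alternatives and 0 changed sign; median scaling ended 13, no filter 2, no background correction and the replicate block 1 each, and cyclic loess and the stricter filter 0. The cause was not tested, except that the stricter filter tests fewer probes (11541). Counts of members stayed within 1.5 times in 208 of 270 alternatives.

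Without background correction the counts higher and lower were 13 and 35 (combined), 11 and 15 (sh1209 in MIA PaCa-2), 19 and 23 (sh1319 in MIA PaCa-2), 10 and 39 (sh1209 in Capan-1) and 9 higher (sh1319 in Capan-1); 22 were lower between the lines, 25 differed between hairpins in Capan-1, and 22 differed between the lines in their hairpin change (the interaction). Under median scaling they were 6 lower (combined), 3 and 2, 5 and 6, and 1 and 11 for the first 3 pairs, and 8 lower for sh1319 in Capan-1, with 14 and 3 between hairpins in MIA PaCa-2 and Capan-1 and 6 in the interaction. Its split of higher against lower is 4 and 6 in the combined comparison against 5 and 20, and 3 and 2 for sh1209 in MIA PaCa-2 against 6 and 7. With the stricter filter they were 12 higher (combined), 11 and 14, 15 and 18, 9 higher and 8 higher for the 4 pairs, 20 lower between the lines and 16 between hairpins in Capan-1. Cyclic loess gave 6 and 4 higher for sh1209 and sh1319 in Capan-1, and no filter 8 higher (combined) and 4 (sh1319 in Capan-1).

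Leaving out 1 array gave 3 to 6 higher and 11 to 19 lower (combined), 3 to 5 and 1 to 7 (sh1209 in MIA PaCa-2), 4 to 8 and 9 to 12 (sh1319 in MIA PaCa-2), 0 to 4 and 13 to 22 (sh1209 in Capan-1), 1 to 3 and 10 to 14 (sh1319 in Capan-1), 29 to 39 and 9 to 13 (lines), 14 to 24 and 3 to 8 (hairpins in MIA PaCa-2 and Capan-1) and 8 to 14 (interaction).

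The replicate block gave 5 higher and 20 lower in the combined comparison, and ended only the call of RPS29 probe 2760452 with sh1209 in MIA PaCa-2 among named changes (-0.53, adjusted p = 0.0516). Same-numbered arrays correlated in their deviations at -0.0608 to 0.159 over 15 pairs of groups, after quantile normalization. Their labels end in the letters A to F for replicate 1 and G to L for replicate 2. The normalization removes a shift common to all probes of an array, so a shared batch was not tested by these values.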
